A study of Homo sapiens with 60 samples.

Results

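Genes of protein folding in the endoplasmic reticulum (ER), of the unfolded protein response (UPR) and of ER-associated degradation (ERAD) were followed in SW1783 cells, an established human astrocytoma line, that had spent 24 h with water extracts of medicinal materials, with drugs or with vehicle. The set holds 36 of the 60675 genes in the count table. Members were taken by gene name, with no measured value in the rule, and all 36 were among the 17919 genes with enough counts to be tested. The set and the other gene lists were nevertheless drawn up with earlier results of these data known. Counts of called genes set beside the share of all genes are therefore descriptions. The members comprise 15 chaperones and folding enzymes, 16 genes of the XBP1 and ERAD group, and 5 sensors and transcription factors. The XBP1 and ERAD group also holds SSR1, SEC61A1 and SEC61B, genes of the channel that brings proteins into the ER (translocon). The vehicle was DMSO, at 0.1% per the sample labels but 2% per the text of the series. Wortmannin and LY294002, both inhibitors of PI3-kinase, and thioridazine, a phenothiazine antipsychotic, were each given at 10 µM. The extracts came from the fungus Poria Cocos (poria) and from the roots or rhizomes named Panax Ginseng (ginseng), Angelicae Gigantis Radix (angelica), Paeoniae Radix (peony), Atractylodis Rhizoma (atractylodes) and Glycyrrhizae Radix (licorice). The 6 extracts had 3 doses each per the sample labels: high (500 µg/mL), medium (100 µg/mL) and low (20 µg/mL). The text of the series says instead that extracts with an IC20 (the concentration of 20% inhibition) under 500 µg/mL were given at lower doses. The doses of the labels are used here. All groups were cells of the same line in Leibovitz's L-15, a medium made with galactose in place of glucose, with 10% fetal bovine serum. There were 60 libraries in 22 groups, with 3 libraries in 16 groups and 2 in each of the 6 angelica and peony groups.

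The ER folds secreted and membrane proteins with chaperones such as HSPA5 (BiP or GRP78) and HSP90B1 (GRP94), with the sugar-binding chaperones CALR and CANX, and with protein disulfide isomerases. When unfolded proteins build up, IRE1 (gene ERN1), ATF6 and PERK (gene EIF2AK3) signal from the ER membrane: IRE1 splices the XBP1 mRNA, cleaved ATF6 and spliced XBP1 switch on chaperone and ERAD genes, and PERK slows translation while favouring the factor ATF4. ERAD moves misfolded proteins back to the cytosol for the proteasome through a complex built on SEL1L and the ubiquitin ligase SYVN1. The glucose-regulated proteins take their name from their rise in cells short of glucose, and HSPA5 mRNA is a standard readout of the UPR.

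ATF6 binds the ER stress response element (ERSE), CCAAT and CCACG with 9 bases of any kind between them, together with the factor NF-Y. Both ATF6 and XBP1 bind the shorter ERSE-II, ATTGG and CCACG with 1 base between them. Both strands of the RefSeq promoters (GRCh38.p14, 250 bases before to 50 after each start) were searched for these letters, and 33 of the 36 members had a promoter there; PDIA3, DERL1 and DERL3 had no entry. An ERSE lay in 8 of the 33 members (24.2%) and in 25 of 27305 genes with a promoter (0.09%), which include the members. The sites are shown because HSPA5 and other genes that the results turn on carry them. Each is written in the orientation of the motif, with the fixed letters in capitals, and both sites of HSP90B1 are given.
HSPA5 ERSE: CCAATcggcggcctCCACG
HSP90B1 ERSE, upstream site: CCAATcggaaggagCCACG
HSP90B1 ERSE, downstream site: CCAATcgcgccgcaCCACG
CALR ERSE: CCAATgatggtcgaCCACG
CANX ERSE: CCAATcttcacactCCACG
PDIA6 ERSE: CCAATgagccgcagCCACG
CRELD2 ERSE: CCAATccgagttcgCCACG
ERO1B ERSE: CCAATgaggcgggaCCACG
XBP1 ERSE: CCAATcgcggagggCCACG
The HSPA5 site lies from base -66 to base -48 of the start and the HSP90B1 sites from -194 to -176 and from -89 to -71. An ERSE-II lay in 3 members (9.1%) and in 19 genes in all (0.07%). HYOU1, an ER chaperone of the HSP110 kind, carried 2 sites with the same letters.
HERPUD1 ERSE-II: ATTGGgCCACG
HYOU1 ERSE-II: ATTGGaCCACG
SDF2L1 ERSE-II: ATTGGtCCACG
The 8 letters TGACGTGG of the UPR element, which XBP1 binds, were found in DNAJC10 and HYOU1, 6.1% of members against 0.93% of genes; in HYOU1 they overlap an ERSE-II. The ATF4 composite element TGATGNAAT was in no member promoter and in 1.22% of genes. The letters of a motif are a description of these windows, not a measured binding site.

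The promoters of HSPA5 (chr9:125241344-125241593, minus strand) and HSP90B1 (chr12:103930160-103930409, plus strand), from 250 bases before the start up to it, are given 5′ to 3′ on the strand of the gene with the ERSE in capitals; the second HSP90B1 site reads on the other strand.
HSPA5 promoter: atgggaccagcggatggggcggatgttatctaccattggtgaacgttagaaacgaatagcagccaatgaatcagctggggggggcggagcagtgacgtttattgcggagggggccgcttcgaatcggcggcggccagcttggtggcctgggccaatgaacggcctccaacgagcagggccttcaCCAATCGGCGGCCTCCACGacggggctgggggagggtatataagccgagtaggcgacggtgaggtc
HSP90B1 promoter: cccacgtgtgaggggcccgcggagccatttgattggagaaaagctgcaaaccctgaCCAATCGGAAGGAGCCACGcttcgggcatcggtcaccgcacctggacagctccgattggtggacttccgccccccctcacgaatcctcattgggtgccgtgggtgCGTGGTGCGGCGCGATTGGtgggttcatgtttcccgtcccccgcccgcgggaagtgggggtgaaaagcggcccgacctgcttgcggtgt

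Library totals ran from 19.45 to 30.87 M counts, with 27.37 to 29.87 M in the vehicle libraries, and 4.378 to 6.704% of counts were mitochondrial. Of the astroglial markers, GFAP, S100B, SLC1A2, AQP4 and ALDH1L1 had medians under 1 CPM (a count per 1000000 counts of the scaled library) over the 60 libraries, while VIM, CD44, GJA1, SOX9 and SLC1A3 were expressed; 7 of 12 astroglial markers had a median of at least 1 CPM. Of other cell types' markers, 7 of 16 reached that median, led by KRT18 and CD68, while EPCAM, CDH1, MOG, AIF1 and CDH5 were near 0. Replicate 1 of the high atractylodes dose, replicate 3 of the medium licorice dose, replicate 1 of the low ginseng dose and replicate 2 of the low angelica dose stood apart from their groups over all genes, and counts of members called that rest on them are given with and without them. Sample codes in the labels differ in their leading figure between the vehicle, the drugs, the poria and atractylodes libraries, the licorice and ginseng libraries and the angelica and peony libraries; against vehicle, this code and the treatment cannot be told apart, while all doses of an extract share it. The labels do not say whether replicates were separate cultures, so the spread between them may be technical. Every comparison with vehicle uses the same 3 vehicle libraries, so these comparisons are not independent of each other.

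Expression of the set moved in opposite directions between treatments. High doses of poria, ginseng, angelica and peony lowered it, and every member called in those comparisons was called lower. Thioridazine raised 25 of 36 members. With licorice at the high dose 8 of 15 chaperones were called higher and 6 of 16 XBP1 and ERAD genes lower, and with the PI3-kinase inhibitors members were called in both directions at a share near that of all genes. A gene is called here when its adjusted p (edgeR's quasi-likelihood test, Benjamini-Hochberg over all genes tested) is under 0.05. The median log2 fold change of all genes lay between -0.001 and 0.025 in the comparisons with vehicle.

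**Figure D1:**
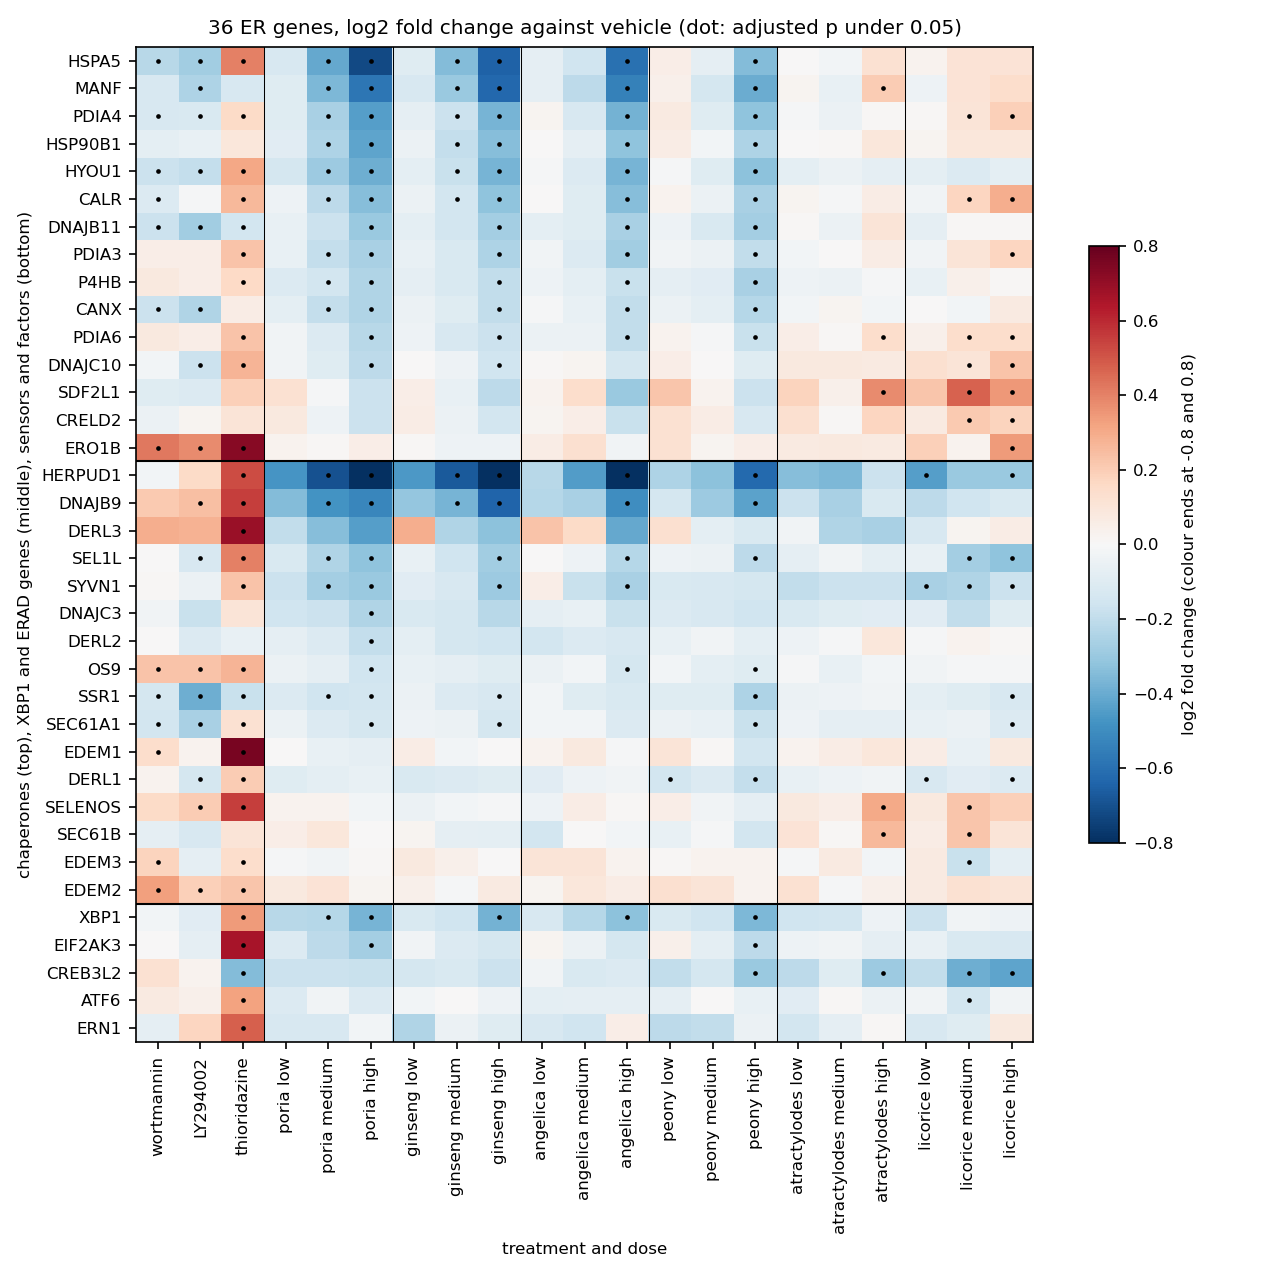
Log2 fold change of the 36 genes (rows, in their 3 groups) against vehicle in each treatment and dose (columns); dots mark an adjusted p under 0.05. The columns of high poria, ginseng, angelica and peony are blue over most chaperones, with 23, 19, 17 and 21 members called lower, and the thioridazine column is red, with 25 called higher.

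HSPA5 (ENSG00000044574, chr9:125234853-125241330 in GRCh38), the major HSP70 chaperone of the ER lumen, which also holds the UPR sensors inactive, was at 3404, 3560 and 3641 CPM in the vehicle libraries. With high poria it was at 2182, 2168 and 2073 CPM, with high ginseng at 2282, 2256 and 2198, with high angelica at 2315 and 2336, and with high peony at 2754 and 2783. All 10 of these libraries were below all 3 vehicle libraries. The fall was 0.72 ± 0.05 (SE) on the log2 scale with poria (1.65-fold, adjusted p = 2.99e-15), 0.65 ± 0.05 with ginseng (1.57-fold, 3.04e-13), 0.60 ± 0.06 with angelica (1.52-fold, 5.51e-10) and 0.35 ± 0.06 with peony (1.28-fold, 1.52e-05). In these cells fewer transcripts per cell and a different mix of cells cannot be told apart from bulk RNA.

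Markers of other cell types moved with several treatments. The summed level of the 4 epithelial markers, of which KRT18 and KRT8 reached a median of 1 CPM while EPCAM and CDH1 were near 0, was 239 to 248 CPM with vehicle. It was 202 to 204 with high poria, 211 to 223 with ginseng, 219 to 226 with angelica, 197 to 208 with peony, 159 to 192 with atractylodes, 121 to 123 with licorice and 78.6 to 79.7 with thioridazine. The sum of the 3 blood and microglia markers, carried by CD68 with PTPRC lower and AIF1 near 0, was 170 to 182 CPM with vehicle. It was 133 to 146 with poria, 144 to 153 with ginseng, 137 to 144 with angelica, 145 to 165 with peony, 137 to 172 with atractylodes, 219 to 251 with licorice and 229 to 238 with thioridazine. The 12 astroglial markers, mostly VIM and CD44, summed to 8907 to 9299 CPM with vehicle, 8200 to 8551 with poria, 8203 to 8337 with ginseng, 8398 to 8632 with angelica, 7073 to 7838 with peony, 8382 to 8947 with atractylodes, 7110 to 7437 with licorice and 6592 to 6797 with thioridazine. The neuron markers summed to 57.8 to 59.4 CPM with vehicle, 47.7 to 52.3 with poria, 56.2 to 57.8 with ginseng, 54.3 to 54.6 with angelica, 53.6 to 56.3 with peony and 85.0 to 90.2 with thioridazine. The oligodendrocyte markers, at low levels, summed to 5.24 to 5.71 with vehicle, 7.02 to 7.86 with poria, 6.18 to 6.61 with ginseng, 6.74 to 6.92 with angelica, 7.87 to 9.6 with peony and 9.2 to 11.1 with thioridazine. The part of these shifts in the ER results was not tested.

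HERPUD1 (ENSG00000051108, chr16:56932048-56944863), which recruits ERAD components at the ER membrane, showed the largest fall of any member with each of these 4 extracts. Its vehicle libraries were at 124, 128 and 132 CPM. High poria left 65.0, 56.7 and 57.0 CPM, high ginseng 62.8, 60.7 and 59.5, high angelica 68.6 and 70.2, and high peony 81.9 and 84.2, so that no library overlapped the vehicle range. The log2 fold change was -1.10 ± 0.12 with poria (adjusted p = 9.42e-09), -1.07 ± 0.12 with ginseng (5.89e-08), -0.88 ± 0.14 with angelica (2.85e-05) and -0.62 ± 0.13 with peony (0.000744).

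MANF (chr3:51385047-51389397), a small ER protein that is also secreted and protects stressed neurons, and DNAJB9, a DNAJ cochaperone that returns IRE1 to its inactive state, completed the 4 largest falls with poria, ginseng and angelica. MANF was at 207, 216 and 211 CPM with vehicle, and at 147, 129 and 148 with high poria, 132, 140 and 137 with high ginseng, 139 and 150 with high angelica, and 150 and 170 with high peony. Its log2 fold changes were -0.58 ± 0.07 (adjusted p = 9.22e-09), -0.63 ± 0.07 (3.77e-09), -0.54 ± 0.08 (2.48e-06) and -0.40 ± 0.08 (0.000104) in that order. DNAJB9 fell from 42.5 ± 1.71 CPM (SD, n = 3) with vehicle to 29.7 ± 3.07 with poria, 27.3 ± 2.23 with ginseng, 30.1 ± 0.368 (n = 2) with angelica and 31.6 ± 2.48 (n = 2) with peony, all called, with adjusted p from 7.66e-06 to 0.00249. DNAJB9 overlaps PNPLA8 and THAP5 on the opposite strand, whose medians over the libraries were 55.2 and 45.0 CPM. The sources used here do not say whether reads were counted by strand.

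The fall covered most folding enzymes and a smaller part of the XBP1 and ERAD group. Of the 15 chaperones and folding enzymes, 12 were called lower with high poria, 12 with ginseng, 11 with angelica and 11 with peony, and none higher, with medians of -0.26, -0.25, -0.28 and -0.25 log2. Of the 16 XBP1 and ERAD genes, 9, 6, 5 and 7 were called lower, with medians of -0.16, -0.13, -0.12 and -0.15. Over all 36 members the called counts were 23, 19, 17 and 21, while 6.41%, 4.20%, 3.53% and 10.4% of all genes tested were called lower in those comparisons and 11.6%, 7.25%, 6.46% and 20.7% in either direction. Leaving out replicate 2 of high angelica left 11 members with that extract, without OS9, P4HB, PDIA6, SEL1L, SYVN1 and XBP1.

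Most other chaperones fell with all 4 extracts. PDIA4, a disulfide isomerase, went from 750 ± 15.2 CPM with vehicle to 554 ± 6.97 with poria, 582 ± 2.45 with ginseng, 576 ± 12.7 with angelica and 600 ± 12.4 with peony. HSP90B1, the ER form of HSP90, went from 1515 ± 21.0 CPM to 1136 ± 6.45, 1197 ± 16.9, 1217 ± 13.4 and 1271 ± 33.1. CALR, which holds glycoproteins during folding and binds calcium, went from 1937 ± 31.1 CPM to 1530 ± 43.8, 1547 ± 19.3, 1532 ± 16.9 and 1621 ± 55.0. Each of these was called with all 4 extracts, as were CANX, the membrane-bound relative of CALR, HYOU1, PDIA3, PDIA6, P4HB and DNAJB11. With angelica, P4HB and PDIA6 lost their calls when either library was left out, and DNAJB11 without replicate 1. With peony, PDIA3 and PDIA6 lost theirs without replicate 1. DNAJC10, a reductase of the ER lumen, was called with poria and ginseng and not with angelica or peony (log2 fold changes of -0.14 and -0.10). CRELD2, SDF2L1 and ERO1B were called with none of the 4; ERO1B, an oxidase that recharges disulfide isomerases, had log2 fold changes between -0.04 and 0.05.

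In the ERAD group, SEL1L, the scaffold of the SYVN1 complex, was called lower with all 4 extracts (with angelica, not when either of its libraries was left out), at 260 ± 6.70 CPM with vehicle and 209 ± 5.03, 215 ± 7.46, 222 ± 6.02 and 225 ± 6.74 with poria, ginseng, angelica and peony. SYVN1 was called with poria, ginseng and angelica (log2 fold changes of -0.30, -0.29 and -0.26) and not with peony (-0.14, adjusted p = 0.194). SYVN1 overlaps FAU on the same strand and MRPL49 on the other, with medians of 154 and 52.6 CPM. The mannosidase-like EDEM1, EDEM2 and EDEM3, which mark misfolded glycoproteins for removal, were not called with any of the 4, and their log2 fold changes lay between -0.15 and 0.07. SELENOS, which links the derlin channel to the extracting ATPase, was also not called, with values between -0.07 and 0.01.

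Among the sensors and factors, XBP1 mRNA was called lower with all 4 extracts. It was at 134, 136 and 133 CPM with vehicle, 107, 103 and 102 with poria, 105, 102 and 103 with ginseng, 110 and 104 with angelica, and 101 and 109 with peony, and no library overlapped the vehicle range. The log2 fold changes were -0.37 ± 0.06 (adjusted p = 2.44e-05), -0.38 ± 0.06 (3.83e-05), -0.33 ± 0.07 (0.00177) and -0.36 ± 0.07 (0.000204), and the angelica call was lost without its replicate 2. Counts per gene do not separate the spliced from the unspliced form. EIF2AK3, the gene of PERK, was called with poria (-0.27 ± 0.07, adjusted p = 0.00797) and peony (-0.21 ± 0.08, 0.0495) and not with ginseng or angelica (-0.14 ± 0.07 and -0.14 ± 0.08). The poria call was lost without poria replicate 2, and the peony call under DESeq2 (0.0563), without peony replicate 1 (0.35) and without any single vehicle library (0.0681 to 0.104). CREB3L2, a factor of the ATF6 kind that serves the secretory pathway, was called with peony (-0.30 ± 0.09, adjusted p = 0.0128), though not without peony replicate 1 (0.0741). ATF6 was called with none of them (-0.11 to -0.04), nor was ERN1 (-0.10 to 0.05).

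**Figure D2:**
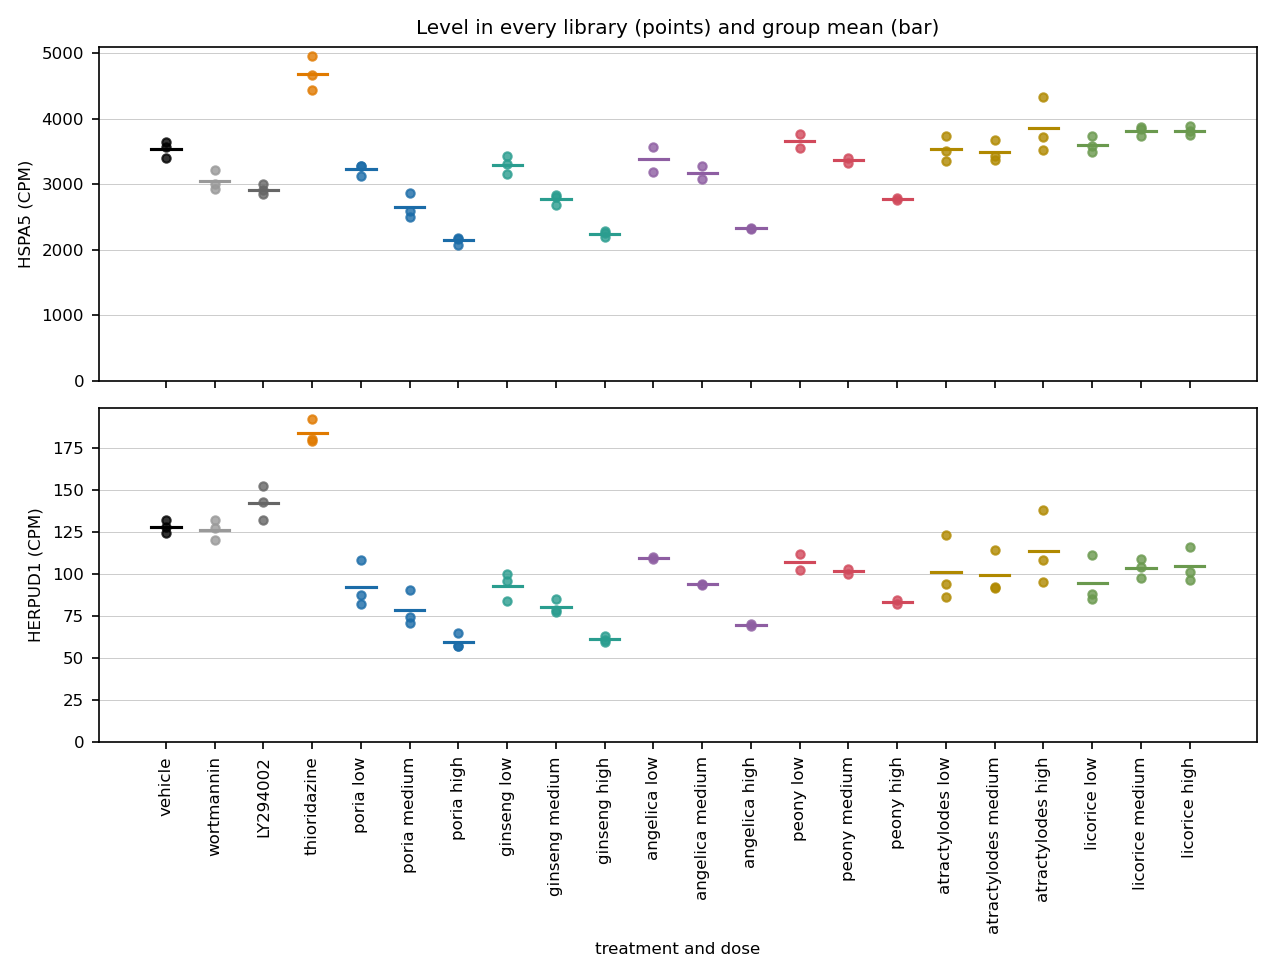
HSPA5 (top) and HERPUD1 (bottom) in CPM in each of the 60 libraries (points) with the group mean (bar), both axes from 0. HSPA5 steps down with dose for poria (means 3225, 2652 and 2141 from low to high) and ginseng (3291, 2775 and 2246), while HERPUD1 is below the vehicle range of 124 to 132 in most extract libraries at any dose.

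The fall grew with dose. HSPA5 with poria was at 3225 ± 82.5 CPM at the low dose, 2652 ± 188 at the medium and 2141 ± 59.2 at the high dose. With ginseng it was at 3291 ± 139, 2775 ± 83.7 and 2246 ± 42.8 CPM, with angelica at 3379 ± 270, 3174 ± 139 and 2326 ± 14.6, and with peony at 3656 ± 151, 3364 ± 57.1 and 2768 ± 19.9. Medium and high dose libraries did not overlap in any of these extracts. At the medium dose HSPA5 was called lower than vehicle with poria (-0.41 ± 0.05, adjusted p = 1.39e-06) and ginseng (-0.35 ± 0.05, 9.47e-05), not with angelica (-0.16 ± 0.06, 0.143) or peony (-0.07 ± 0.06, 0.638).

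At the medium dose of poria 15 members were called, all lower, where 1.04% of all genes were called lower and 1.47% in either direction, and HERPUD1 (-0.70 ± 0.12) and DNAJB9 (-0.48 ± 0.09) had the largest falls. At the medium dose of ginseng 8 were called, all lower, where 0.402% of genes were called lower and 0.569% in either direction; leaving out any single library of that comparison left 2 to 4, and leaving out the 4 libraries that stood apart, 1 of them a low ginseng library, gave 13. No member was called at the medium dose of angelica or peony, where 2.91% and 2.55% of genes were called. At an unadjusted p under 0.05 there were 11 and 10 members, and DESeq2 called 4 and 0. At the low dose no member was called with poria, ginseng or angelica, against 0.419%, 0.592% and 1.75% of genes; the unadjusted counts were 15, 5 and 3, and DESeq2 called 3, 1 and 0. Without the 4 libraries that stood apart, 6 members were called lower with medium angelica, 6 with low poria and 8 with low ginseng. DERL1, a derlin of the retrotranslocation channel, was the only member called at the low dose of peony, lower, where 2.5% of genes were called lower and 5.23% in either direction, and leaving out either peony library or vehicle replicate 1 or 3 left none.

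Comparing the high with the low dose of the same extract uses no vehicle library, and the dose libraries share the sample code. There 16 of 36 members were called lower with poria, 13 with ginseng, 10 with angelica and 12 with peony, and none higher. Of all genes, 2.78%, 0.430%, 0.558% and 3.13% were called lower in those comparisons and 5.51%, 0.653%, 0.943% and 5.90% in either direction. In all, 117 genes of the whole table were called between the ginseng doses, and these 13 members were among them. The chaperones supplied 13, 10, 8 and 11 of the called members, out of 15. The XBP1 and ERAD group supplied 3, 2, 2 and 1 of 16. DNAJB9 was called with none of these extracts there, and of the sensors and factors only XBP1 was called, with ginseng.

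HSPA5 fell between low and high dose by 0.59 ± 0.05 log2 with poria (adjusted p = 3.21e-12), 0.55 ± 0.05 with ginseng (1.65e-10), 0.54 ± 0.06 with angelica (1.56e-07) and 0.40 ± 0.06 with peony (1.47e-05). HERPUD1 fell by 0.64 ± 0.12 with poria (0.000531), 0.61 ± 0.12 with ginseng (0.00503) and 0.66 ± 0.15 with angelica (0.0128), and was not called with peony (-0.37 ± 0.15, 0.129). Without the 4 libraries that stood apart, the angelica value of HERPUD1 was -0.65 with an adjusted p of 0.0757, and 21 members were called with peony, 12 with ginseng and 10 with angelica. With ginseng, leaving out the low replicate 1 left 6 members and leaving out the high replicate 1 or 3 left 7. With angelica, leaving out the low replicate 2 left 5 and the high replicate 1 left 6, and with peony, leaving out the low or the high replicate 1 left 6 and 7.

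**Figure D3:**
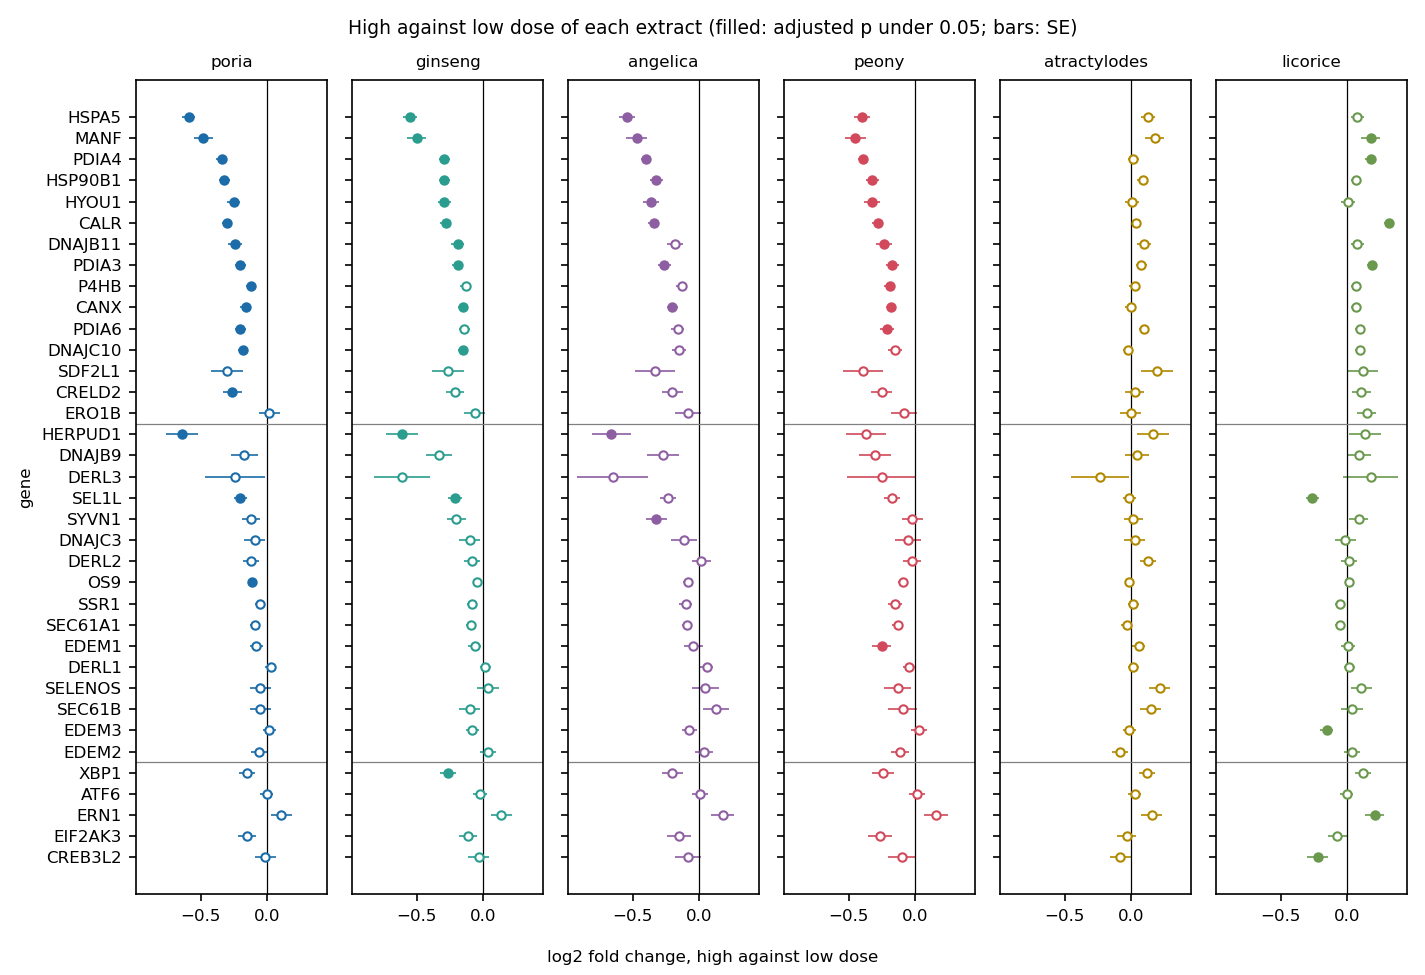
Log2 fold change of the high against the low dose for the 36 genes (rows) in each of the 6 extracts (panels), with SE bars and filled points at an adjusted p under 0.05. The chaperones at the top lie left of 0 with poria, ginseng, angelica and peony, where 13, 10, 8 and 11 of 15 were called lower, and to the right with licorice, where 4 were called higher; with atractylodes none was called.

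HERPUD1 showed a difference from vehicle that the dose step does not contain, and it was not the only member to do so. At the low dose it was at 108, 87.5 and 81.7 CPM with poria, 99.8, 95.5 and 83.7 with ginseng, 123, 94.0 and 86.1 with atractylodes, 111, 87.8 and 84.8 with licorice, 109 and 110 with angelica, and 112 and 102 with peony. Every one of these libraries was below the vehicle range of 124 to 132 CPM. With poria, ginseng, atractylodes and licorice, replicate 1 was the highest library of its group, so part of the spread went with the replicate number. The difference from vehicle was called only with low licorice (-0.44 ± 0.12, adjusted p = 0.0271). It was -0.47 ± 0.12 with low poria (0.0575), -0.46 ± 0.12 with low ginseng (0.0515), -0.34 ± 0.12 with atractylodes (0.153), -0.25 ± 0.13 with peony (0.301) and -0.22 ± 0.13 with angelica (0.515). DESeq2 called the poria and ginseng values (adjusted p of 0.0221 and 0.0161), and both were also called with the replicate number as a block. For these values the extract and the sample code cannot be told apart. In the same libraries HSPA5 differed from vehicle by between -0.13 and 0.05 log2, none called.

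Extracts given at the same dose per the labels, under the same leading sample code, were set against each other. High poria against high atractylodes gave 25 members called, all lower with poria, where 8.90% of genes were called lower and 16.6% in either direction; they included 14 of the 15 chaperones, at a median of -0.37 log2, and 21 of the 25 were still called without the 4 libraries that stood apart. HSPA5 was 1.80-fold lower (-0.85 ± 0.05, adjusted p = 1.15e-18) and HERPUD1 1.91-fold lower (-0.93 ± 0.12, 1.95e-07). High licorice against high ginseng gave 22 called, 21 of them higher with licorice and 1 lower, where 17.2% of genes were called higher and 17.0% lower (34.2% in either direction). All 15 chaperones were called higher with licorice, at a median of 0.38 log2. HSPA5 (0.76 ± 0.05, adjusted p = 1.71e-17), MANF (0.77 ± 0.07, 2.13e-13) and HERPUD1 (0.77 ± 0.12, 1.93e-06) each differed 1.70 to 1.71-fold, and CREB3L2 was lower (-0.25 ± 0.08, 0.0109). High peony against high angelica gave 2 called of 36, a share near the 4.34% of all genes (2.20% higher and 2.14% lower). HSPA5 was higher with peony (0.25 ± 0.06, adjusted p = 0.0127) and DERL1 lower (-0.16 ± 0.05, 0.0358). Leaving out a single library of that pair of groups left 0 to 2 members.

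The genes of the PERK and ATF4 arm moved the same way as the chaperones with these extracts. Of 8 genes, 5 were called lower with high poria, ginseng, angelica and peony each, with none higher and medians of -0.31, -0.25, -0.25 and -0.31 log2. Of all genes, 6.41%, 4.20%, 3.53% and 10.4% were called lower there and 11.6%, 7.25%, 6.46% and 20.7% in either direction. DDIT3 (CHOP), a factor of prolonged ER stress, went from 32.0, 34.7 and 34.0 CPM with vehicle to 21.0, 19.4 and 19.4 with poria, 19.8, 21.0 and 21.9 with ginseng, 21.7 and 23.1 with angelica, and 25.7 and 27.8 with peony. PPP1R15A (GADD34), which reverses the translation block of PERK, fell by 0.40 ± 0.05 with poria (adjusted p = 1.15e-07), 0.52 ± 0.05 with ginseng (5.13e-10) and 0.59 ± 0.06 with angelica (5.51e-10). At the low dose PPP1R15A was at 71.7, 68.3 and 69.8 CPM with poria, 72.2, 66.6 and 69.1 with ginseng, and 55.9 and 68.7 with angelica. Its vehicle libraries were at 84.4, 79.0 and 80.0, so part of this difference lay outside the dose step. Of 12 cytosolic heat shock genes, 1, 2, 0 and 1 were called lower and 3, 2, 1 and 1 higher, and no direction is read from counts this small.

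TXNIP, a regulator of glucose uptake whose mRNA rises with glucose and its phosphates, moved with the same treatments in the other direction. It was at 10.3 to 11.0 CPM in the vehicle libraries, at 207, 211 and 200 with high poria, 149, 153 and 147 with high ginseng, 57.6 and 60.8 with high angelica, and 30.1 and 28.3 with high peony. Its log2 fold changes were 4.27 ± 0.08 (adjusted p = 2.85e-42), 3.81 ± 0.08 (7.38e-40), 2.47 ± 0.09 (1.02e-28) and 1.45 ± 0.09 (1.05e-17), in the order in which HSPA5 fell by 0.72, 0.65, 0.60 and 0.35. Its relative ARRDC4, under the same glucose-sensing factors, rose by 2.30, 1.79, 1.07 and 0.54 log2. With high atractylodes and licorice TXNIP was lower than vehicle (-0.97 ± 0.11 and -0.90 ± 0.11, both called), and with wortmannin and LY294002 it rose by 1.15 ± 0.09 and 1.68 ± 0.08. The medium is made with galactose in place of glucose, and the glucose content of the serum and extracts was not among the data. The part of glucose in the fall of the ER genes was not tested.

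**Figure D4:**
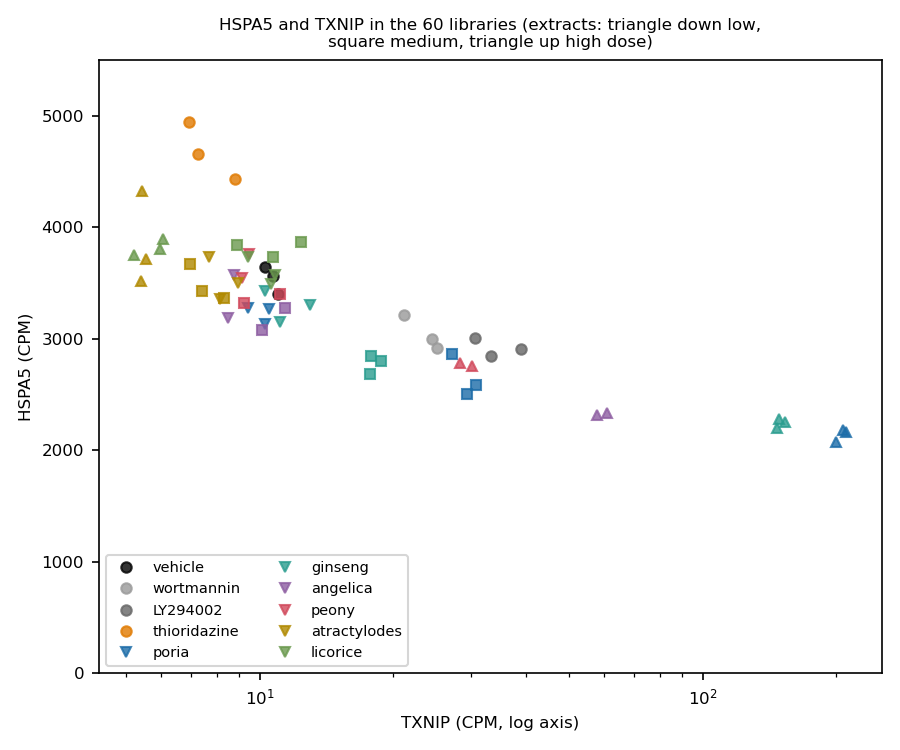
HSPA5 (linear axis, CPM) against TXNIP (log axis, CPM) in the 60 libraries, coloured by treatment and shaped by dose. High poria and ginseng libraries sit at TXNIP of 147 to 211 and HSPA5 of 2073 to 2282, vehicle libraries at 10.3 to 11.0 and 3404 to 3641, and thioridazine libraries at 6.94 to 8.81 and 4433 to 4947.

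Thioridazine raised the set, with 25 members called higher and 3 lower, where 24.6% and 23.8% of all genes were called in those directions and 48.4% in either. The XBP1 and ERAD group held 12 of the rises, the chaperones 9 and the sensors and factors 4, with medians of 0.23, 0.19 and 0.34 log2. Of the chaperones, HSP90B1 (0.09 ± 0.04, adjusted p = 0.0536), CANX (0.06 ± 0.04, 0.19) and MANF (-0.13 ± 0.07, 0.0904) were not called. Neither were SDF2L1 (59.0, 54.6 and 59.7 CPM against 47.6, 53.0 and 51.0 with vehicle) and CRELD2 (69.0, 68.6 and 71.7 against 62.2, 66.9 and 66.1). SDF2L1 was called when no low-count filter was used. HSPA5 was at 4433, 4658 and 4947 CPM, all above the vehicle libraries, a rise of 0.40 ± 0.05 log2 (1.32-fold, adjusted p = 3.7e-09).

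EDEM1 (chr3:5187646-5219957) had the largest rise of the members with thioridazine. It was at 91.4, 92.2 and 88.5 CPM with vehicle and 152, 143 and 165 with the drug, a difference of 0.76 ± 0.05 log2 (1.69-fold, adjusted p = 3.78e-18). ERO1B went from 11.3, 11.4 and 11.0 CPM to 17.9, 19.3 and 18.7 (0.73 ± 0.07, adjusted p = 1.74e-12), and EIF2AK3 from 26.5, 26.9 and 26.2 to 42.0, 43.3 and 40.5 (0.66 ± 0.07, 3.36e-12). No thioridazine library overlapped the vehicle range for these genes. DERL3, a derlin found mainly in secretory cells, rose by 0.69 ± 0.20 (adjusted p = 0.00303) at 1.84 to 2.29 CPM against 1.21 to 1.38; it overlaps SMARCB1 on the opposite strand, at a median of 93.3 CPM. ERO1B likewise overlaps GPR137B, at 6.42 CPM.

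SELENOS and DNAJB9 each rose by 0.55 log2 with thioridazine, HERPUD1 by 0.52 ± 0.11 (179, 180 and 192 CPM, adjusted p = 0.000175) and SEL1L by 0.40 ± 0.05 (3.7e-09). All sensors but CREB3L2 rose: ERN1 by 0.48 ± 0.07 (adjusted p = 1.15e-07), XBP1 by 0.34 ± 0.06 (6.01e-06) and ATF6 by 0.32 ± 0.05 (3.38e-08). XBP1 libraries were at 163, 169 and 178 CPM against 133 to 136 with vehicle. The falls were in CREB3L2 (203, 203 and 199 CPM against 247 to 265, -0.35 ± 0.08, adjusted p = 0.000198), SSR1, a subunit of the translocon-associated complex (-0.18 ± 0.04), and DNAJB11, an HSPA5 cochaperone (-0.15 ± 0.05).

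Of the PERK and ATF4 arm, 8 of 8 genes were called higher with thioridazine, at a median of 1.66 log2. Of all genes, 24.6% were called higher and 23.8% lower with this drug. TRIB3, a pseudokinase induced by ATF4 and CHOP, rose by 2.82 ± 0.09 (adjusted p = 6.82e-29) and CHAC1, which degrades glutathione, by 2.25 ± 0.16 (1.64e-16). DDIT3 was at 90.1, 97.2 and 111 CPM against 32.0 to 34.7 with vehicle. Of the cytosolic heat shock genes, 9 of 12 were called lower and 1 higher, and CREB3L1, a relative of CREB3L2, fell by 0.85 ± 0.07 (1.37e-14).

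**Figure D5:**
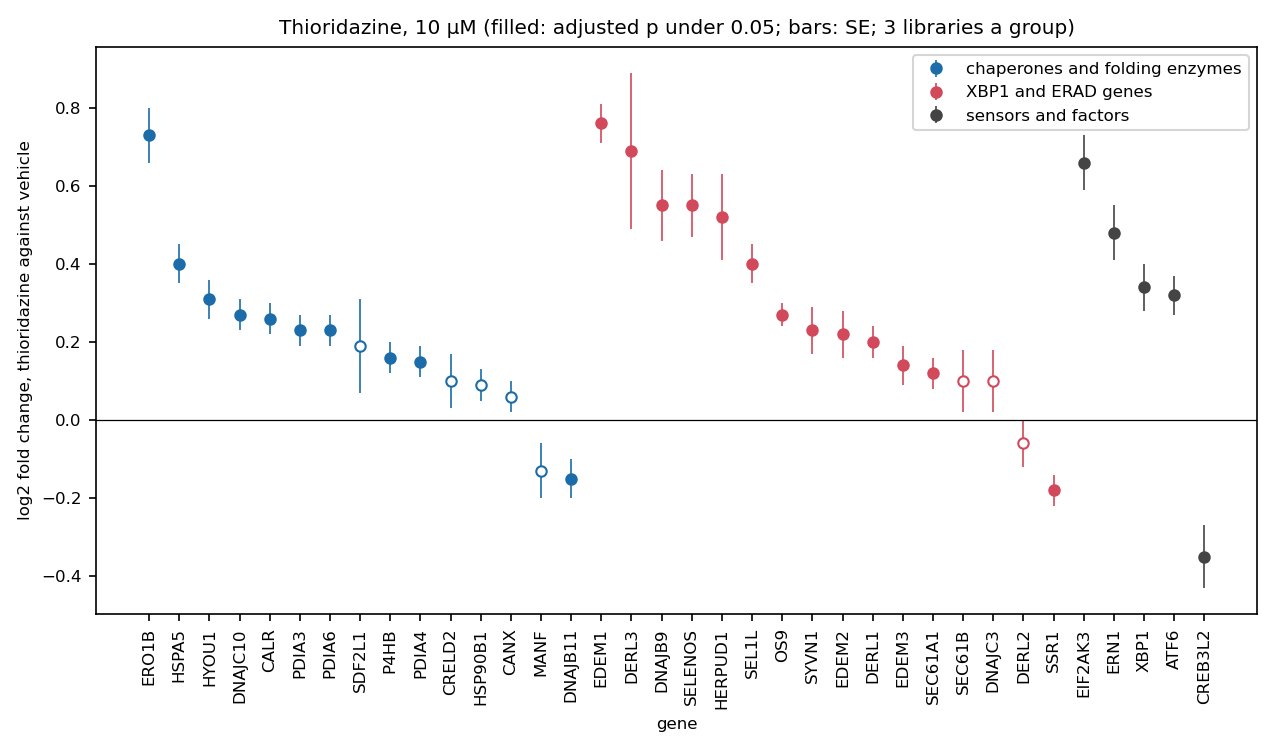
Log2 fold change with thioridazine at 10 µM against vehicle for the 36 genes, coloured by group, with SE bars and filled points at an adjusted p under 0.05 (3 libraries a group). EDEM1 (0.76), ERO1B (0.73), DERL3 (0.69) and EIF2AK3 (0.66) are the highest and CREB3L2 (-0.35) the lowest; the SE of DERL3 is 0.20.

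Licorice at the high dose moved members in both directions. There 8 of 15 chaperones were called higher and none lower, while 6 of 16 XBP1 and ERAD genes were called lower and none higher; in all 15 members were called, where 15.9% of genes were called higher and 15.0% lower (30.9% in either direction). CALR went from 1966, 1942 and 1904 CPM with vehicle to 2430, 2349 and 2336, with no overlap (0.29 ± 0.04 log2, adjusted p = 2.02e-09). SDF2L1, a partner of HSPA5 and DNAJB11, went from 47.6, 53.0 and 51.0 to 64.3, 61.6 and 66.6 CPM (0.35 ± 0.12, 0.0237), ERO1B rose by 0.34 ± 0.08 (0.000421) and DNAJC10 by 0.23 ± 0.04 (7.28e-06). HSPA5, at 3748, 3890 and 3804 CPM, was above the vehicle libraries without being called (0.11 ± 0.05, 0.111). Leaving out replicate 3 of high licorice left 8 members called; the 7 lost were CRELD2 and SDF2L1 among the rises and DERL1, HERPUD1, SEC61A1, SSR1 and SYVN1, so that SEL1L was the one XBP1 and ERAD gene still called.

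The licorice falls were led by CREB3L2, at 201, 193 and 185 CPM against 261, 247 and 265 (-0.42 ± 0.08, adjusted p = 4.57e-05), and SEL1L, at 208, 215 and 200 against 259, 254 and 267 (-0.32 ± 0.05, 1.71e-06). HERPUD1 (-0.30 ± 0.12, 0.049) and SYVN1 (-0.17 ± 0.07, 0.0369) were called close to the threshold, and HERPUD1 lost its call without any single vehicle library or without licorice replicate 2 or 3. XBP1 (-0.04), ATF6 (-0.03), ERN1 (0.08) and EIF2AK3 (-0.13) were not called. Of the PERK and ATF4 arm, 7 of 8 genes were called higher, where 15.9% of all genes were. Their median was 0.56 log2, with CHAC1 at 0.96 ± 0.17 (adjusted p = 1.62e-05) and ATF3 at 0.84 ± 0.16 (3.84e-05).

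At the medium dose of licorice 13 members were called (8 higher, 5 lower), where 12.4% of genes were called higher and 12.8% lower (25.2% in either direction). SDF2L1 (0.47 ± 0.12, adjusted p = 0.00264) and SEC61B, a subunit of the translocon (0.22 ± 0.08, 0.0453), had the largest rises, and CREB3L2 (-0.39 ± 0.08, 0.000228) and SEL1L (-0.27 ± 0.05, 9.52e-05) the largest falls. Replicate 3 of this group stood apart over all genes: without it 6 members were called, without vehicle replicate 1 7, and without all 4 such libraries 8, with SDF2L1 at 0.40 (0.00406), CREB3L2 at -0.25 (0.000686), SEL1L at -0.19 (0.0021) and SEC61B, no longer called, at 0.14 (0.22). At the low dose 3 were called, all lower and all in the ERAD group (HERPUD1, SYVN1 and DERL1), where 1.76% of genes were called lower and 3.29% in either direction; leaving out the low replicate 3 or the vehicle replicate 1 or 3 left none. Between the high and low dose 8 members were called, a share near the 18.2% of all genes called (9.02% higher, 9.14% lower). CALR (0.32 ± 0.04, adjusted p = 3.72e-10) and ERN1 (0.21 ± 0.07, 0.0447) had the largest rises, and SEL1L (-0.26 ± 0.05, 0.000144) and CREB3L2 (-0.22 ± 0.08, 0.0467) the largest falls. Leaving out a single library of those doses left 4 to 6.

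With atractylodes few members changed, and all 6 calls at the high dose were lost without its replicate 1. At that dose 5 were called higher (SDF2L1, SELENOS, SEC61B, MANF and PDIA6) and CREB3L2 lower, where 7.24% of genes were called higher and 6.63% lower (13.9% in either direction). The share of members called in either direction was near that of all genes. SDF2L1 was at 83.9, 58.5 and 54.4 CPM, SELENOS at 55.7, 45.6 and 44.5, and HSPA5 at 4328, 3714 and 3520; replicate 1 was the highest each time and stood apart over all genes. The log2 fold changes were 0.38 ± 0.12 for SDF2L1 (adjusted p = 0.0288), 0.30 ± 0.08 for SELENOS (0.00492), 0.26 ± 0.08 for SEC61B (0.0323) and 0.20 ± 0.07 for MANF (0.0375), and HSPA5 was not called (0.12 ± 0.05, 0.107). CREB3L2 was at 187, 223 and 224 CPM against 247 to 265 (-0.29 ± 0.08, 0.0105), with replicate 1 the lowest. Without replicate 1 the only member called was DNAJB9, which was not among the 6, and CREB3L2 was at -0.20 (0.171); without replicate 3 of the same group 10, and without vehicle replicate 1 or 3 2. Without all 4 libraries that stood apart 2 were called, CREB3L2 (-0.21, 0.00689) and DNAJB9, with PDIA6 no longer called and SDF2L1 at 0.16 (0.449), SELENOS at 0.19 (0.0948), SEC61B at 0.15 (0.259) and MANF at 0.07 (0.627). No member was called at the medium or low dose (1.06% and 0.804% of genes called; 6 and 7 members at an unadjusted p under 0.05, 0 and 0 by DESeq2), nor between the high and low dose (4.10% of genes; 9 unadjusted, 0 by DESeq2).

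Wortmannin and LY294002 moved members in both directions. With wortmannin 5 members were called higher and 8 lower, 13 of 36, where 15.4% of all genes were called higher and 16.4% lower (31.7% in either direction), and with LY294002 5 higher and 11 lower, 16 of 36, where 19.4% were called higher and 19.9% lower (39.3%). Both shares are near the background. HSPA5 was at 2919, 2999 and 3211 CPM with wortmannin (-0.22 ± 0.05, adjusted p = 0.000963) and 2843, 2905 and 3004 with LY294002 (-0.28 ± 0.05, 2.34e-05), below every vehicle library. Of the chaperones 6 and 7 of 15 were called lower and 1 and 1 higher, at medians of -0.10 and -0.11 log2, and of the 16 XBP1 and ERAD genes 2 and 4 lower and 4 and 4 higher, at medians of 0.02 and -0.06. Examples were CANX at -0.17 ± 0.04 and HYOU1 at -0.17 ± 0.05 with wortmannin and DNAJB11 at -0.17 ± 0.05 and -0.28 ± 0.05. SSR1 had the largest fall with LY294002, from 464, 457 and 456 CPM to 364, 345 and 343 (-0.39 ± 0.04, adjusted p = 3.25e-11), ahead of SEC61A1, the channel of the translocon (-0.26 ± 0.04, 8.51e-08).

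Rises with both drugs were in ERO1B, at 16.9, 14.8 and 13.4 CPM with wortmannin and 15.1, 14.7 and 14.0 with LY294002 against 11.0 to 11.4 with vehicle (0.42 ± 0.08 and 0.38 ± 0.08), and in OS9, a lectin of the SEL1L complex (0.23 ± 0.03 with each). Wortmannin also raised EDEM2 (0.33 ± 0.05) and EDEM3 (0.18 ± 0.05), and LY294002 raised DNAJB9 (0.24 ± 0.09) and SELENOS (0.20 ± 0.08), both lost without LY294002 replicate 3 or vehicle replicate 1. No sensor or factor was called with either drug, and HERPUD1 was not called (-0.02 ± 0.11 and 0.15 ± 0.11). Set against each other at the same dose and time, 7 of 36 members differed, a share near the 16.4% of all genes (8.79% higher and 7.57% lower with wortmannin). The largest differences were in EDEM3 and SSR1, higher with wortmannin (0.25 ± 0.05 and 0.25 ± 0.04, adjusted p of 0.000183 and 9.8e-06), and ERN1 and CALR, lower (-0.24 ± 0.07 and -0.10 ± 0.04, 0.0189 and 0.0389). HSPA5 did not pass (0.06 ± 0.05, 0.493). Leaving out wortmannin replicate 2 or LY294002 replicate 3 left 4 members. Of other pathway genes, CREB3L1 (-0.51 and -0.55) and CREB3 (-0.32 and -0.31) fell and ATF6B (0.26 and 0.35) rose with both drugs.

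The members with an ERSE were set beside the other members with a promoter entry. Of all genes, 6.41%, 4.20%, 3.53% and 10.4% were called lower with high poria, ginseng, angelica and peony, and 24.6% higher with thioridazine. With high poria 6 of 8 with the element and 16 of 25 without it were called lower (medians -0.29 and -0.19 log2), with ginseng 6 and 12 (-0.26 and -0.16), with angelica 6 and 10 (-0.26 and -0.14) and with peony 6 and 13 (-0.24 and -0.17). The 6 were HSPA5, HSP90B1, CALR, CANX, PDIA6 and XBP1 in each case, while CRELD2 and ERO1B, which carry it too, were not called. With thioridazine 5 of 8 and 17 of 25 were called higher, with medians of 0.24 and 0.22. With high licorice 4 of 8 with the element were called higher and 0 lower (median 0.12). Of the 25 without it, 3 were called higher and 6 lower (-0.01), where 15.9% of all genes were called higher and 15% lower. Of the ERSE-II genes, HERPUD1 and HYOU1 were called lower with all 4 extracts and SDF2L1 with none (log2 fold changes of -0.30 to -0.17), and SDF2L1 was called higher with high licorice and, with the library that stood apart, high atractylodes.

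Summed over the chaperones, the CPM of the 15 genes was 14294 ± 186 with vehicle, 10824 ± 149 with high poria, 11165 ± 83.3 with ginseng, 11241 ± 107 with angelica and 11813 ± 247 with peony. It was 16638 ± 413 with thioridazine and 15534 ± 165 with high licorice. For the 16 XBP1 and ERAD genes the sums were 2316 ± 22.5 with vehicle, 2016 ± 35.6, 2039 ± 42.1, 2082 ± 42.3 and 2028 ± 26.5 with the same 4 extracts and 2648 ± 65.3 with thioridazine. The chaperone sum with high licorice lay above every vehicle library (15345 to 15651 against 14090 to 14454). The sum of the XBP1 and ERAD group, which includes the translocon genes SSR1, SEC61A1 and SEC61B, lay below them (2103 to 2169 against 2303 to 2342).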

How the data were processed

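RNA sequencing of 60 SW1783 libraries was analysed from the authors' deposited table of expected counts per gene, not normalised between samples. Per the labels' protocols, 1 µg of total RNA with an RNA integrity number above 7 was made into libraries with a directional kit and read as 100 bp paired ends. The submitters' processing notes name the aligner STAR 2.7.3a, the counter RSEM 1.3.3, Trim Galore 0.6.5, FastQC 0.11.9 and the build GRCh38. The table has 279 columns; 60 were matched to the samples by the code in their labels and 219 were not used. Expected counts (9.5% not whole at a tolerance of 1e-06) were rounded. The filterByExpr filter (edgeR 4.0.16; at least 10 counts, and 15 in all) kept 17919 genes; TMM factors ran from 0.968 to 1.071.

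All libraries entered 1 quasi-likelihood fit with 1 coefficient per group (common biological coefficient of variation 0.051), and 31 contrasts were tested two-sided with Benjamini-Hochberg adjustment over all genes tested and a threshold of 0.05. A CPM is a count per 1000000 of the TMM-scaled library size, with no correction for gene length. Each SE equals the absolute log2 fold change over the root of its F statistic. Members and gene lists were chosen with earlier results of these data known. Members named were the 4 largest called rises and falls for a drug or high dose, 2 and 2 otherwise, HSPA5 and HERPUD1 throughout, the 5 sensors and factors for drugs and high doses, and the 2 largest of the other lists; further members are named where a count or a group is described. Positions are from GENCODE 29 and promoters from RefSeq. In simulated data (17322 genes, 50 changed at each fold), high poria against vehicle recovered 26, 44, 47 and 50 at folds of 1.2, 1.3, 1.5 and 2, with 11 unchanged genes called; high angelica against vehicle, with 2 libraries, recovered 20, 38, 49 and 50, with 9. Same-numbered libraries deviated together in every pair (r over 0.1) in 2 comparisons, high against low atractylodes (0.11 to 0.52) and high poria against high atractylodes (0.22 to 0.30), as read from the data and not the labels. Alternatives were DESeq2 1.42.0, the replicate number as a block, RLE size factors, testing without a low-count filter, leaving out each library in turn and, chosen after seeing the data, leaving out 4 libraries whose log2 CPM differed from the other libraries of their group by an SD over 0.15 (of the low angelica pair, both at 0.185, the one farther from the medium dose).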

Additional observations from a re-analysis of the deposited data

How the results depend on the processing

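Counts of members called are for comparisons with vehicle unless stated. No named member that was called in the main or the alternative setting changed sign between them. Sign changes of members called in neither setting were not recorded, and a count of members has no direction to change. DESeq2 gave 3 members with low poria, 1 with low ginseng and 4 with medium angelica. RLE size factors gave 1 with low ginseng and 3 with medium angelica. Without a filter on low counts there were 4 with low poria, 2 with medium and 3 with low atractylodes, 5 with low licorice, 2 with low ginseng, 5 with medium and 1 with low angelica, 2 with medium and 2 with low peony, and 3 between high and low atractylodes. With the replicate number as a block there were 3 with low poria, 1 with medium atractylodes, 1 with low ginseng, 3 with medium angelica and 1 with medium peony, and no other count moved by more than 1.5 times under the block. Without the 4 libraries that stood apart there were 6 with low poria, 2 with high and 2 with low atractylodes, 8 with medium and 5 with low licorice, 13 with medium and 8 with low ginseng, 6 with medium angelica, 1 with medium and 2 with low peony, 21 between high and low peony and 4 between high peony and high angelica. Leaving out each library in turn gave 174 counts, of which 132 stayed within 1.5 times, 35 were lower and 7 higher. Their ranges were 0 to 2 with low poria, 1 to 10 with high and 0 to 2 with low atractylodes, 8 to 15 with high, 6 to 13 with medium and 0 to 2 with low licorice, 2 to 4 with medium and 0 to 2 with low ginseng, 11 to 17 with high angelica and 0 to 1 with low peony. Between high and low doses they were 0 to 4 with atractylodes, 4 to 6 with licorice, 6 to 10 with ginseng, 5 to 10 with angelica and 6 to 17 with peony, and they were 4 to 6 for wortmannin against LY294002 and 0 to 2 for peony against angelica. The cause of these shifts was not tested. In simulated data, 26 of 50 changes of 1.2-fold were recovered for high poria against vehicle (3 libraries) and 20 for high angelica (2 libraries). The simulation gave every gene the same spread and changed few genes, so these rates need not hold for the members. Some smaller changes were called, such as SSR1 with thioridazine, and others of that size may have been missed.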

Other observations

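Other genes of the ER, listed with the pathway and not among the 36, moved less than the chaperones in most treatments. With high poria, ginseng, angelica and peony, 6.41%, 4.20%, 3.53% and 10.4% of all genes were called lower. Of 15 genes of the translocon and of N-glycosylation, 5 were called lower with high poria, 5 with ginseng, 2 with angelica and 5 with peony, at medians of -0.08, -0.06, -0.07 and -0.15 log2, and none was called higher. STT3A, a catalytic subunit of the oligosaccharyltransferase, was among them with all 4 (-0.21 ± 0.03, -0.16 ± 0.03, -0.15 ± 0.03 and -0.25 ± 0.03, adjusted p of 1.07e-06, 0.000256, 0.00435 and 1.66e-07). Of 8 genes of ER to Golgi transport, 5 were called lower with high peony and 2, 0 and 1 with poria, ginseng and angelica; KDELR3, a receptor that returns chaperones to the ER, fell by 0.27 ± 0.05 with poria, 0.20 ± 0.05 with angelica and 0.27 ± 0.05 with peony, and rose by 0.42 ± 0.05 with thioridazine (adjusted p = 4.99e-11).

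With LY294002, 3 of 15 translocon and glycosylation genes were called higher and 7 lower, where 19.4% and 19.9% of all genes were, led by SSR4 (0.34 ± 0.08) and SSR3 (-0.39 ± 0.04), subunits of the same translocon-associated complex. With thioridazine 5 were called higher and 4 lower, near the 24.6% and 23.8% of all genes, with SSR4 at 0.36 ± 0.08 and SSR2 at -0.28 ± 0.06. ERP29, a folding factor of the ER lumen, rose with all 3 drugs, by 0.18 ± 0.06 with wortmannin (adjusted p = 0.0184), 0.44 ± 0.06 with LY294002 (3.55e-08) and 0.68 ± 0.06 with thioridazine (2.03e-14), while UGGT1, which checks the folding of glycoproteins, fell by 0.24 ± 0.06, 0.29 ± 0.06 and 0.17 ± 0.06. With high atractylodes and licorice 5 translocon and glycosylation genes each were called higher and none lower, SSR4 among them (0.28 ± 0.08 and 0.23 ± 0.08). All genes called higher were 7.24% and 15.9% there, and the atractylodes values include the library that stood apart.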
